A study of Mus musculus with 9 samples.

Results

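The comparison described here is valproic acid against control in whole brain of mouse embryos at embryonic day 14, read gene by gene across the autosomes. Its members are the genes on chromosomes 1 to 19 with enough counts to be tested, 16278 of 48071 autosomal genes in a table of 56748 genes. Both groups were labelled only as mouse brain with a treatment: 3 control libraries with saline as the treatment and 3 libraries with valproic acid. The 3 libraries of a poly(I:C) group, a double-stranded RNA analogue that mimics viral infection, entered the fit to share its estimate of spread, and their values are given beside some genes. No strain, dose, day or route of exposure, litter, sex or age other than the embryonic day is given for any group, and whether each library stands for another embryo is not stated. The p-values therefore measure only the spread between these libraries, which may be technical.

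Valproic acid is a branched short-chain fatty acid used against epilepsy and as a mood stabiliser. It inhibits class I and some class II histone deacetylases, the enzymes that remove acetyl groups from histone tails, and it is broken down in part by the mitochondrial enzymes that oxidise fatty acids. Taken in pregnancy it raises the risk of neural tube defects and of autism in the child, and prenatal exposure of rodents is a model of autism. At this stage radial glia and intermediate progenitors of the mouse forebrain are producing neurons, and the first synapses and ion channels are being built in the neurons already born. In these bulk libraries fewer cells of a type and less RNA per cell cannot be told apart.

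The libraries held 15399974 to 19883131 counts each, and edgeR's biological coefficient of variation was 7.44%. Values are CPM, the reads of a gene relative to the total of its library, scaled by edgeR's trimmed mean of M-values factors, and a gene is called when edgeR's quasi-likelihood F-test gives a Benjamini-Hochberg adjusted p under 0.05 over all tested genes. The summed CPM of 3 intermediate progenitor markers lay at 337 to 360 in controls and 456 to 496 under valproic acid, all 3 called higher. That of 6 neuron markers lay at 5903 to 6007 and 5570 to 5909, 2 of them called lower. Markers of skin and eye were too low to be tested, as were 3 of 4 liver markers. Xist, the RNA of the inactive X chromosome, reached 981 to 1055 CPM in every valproic acid library and in the third poly(I:C) library, while no control exceeded 0.236 CPM. Y-linked transcripts summed to 199 and 200.5 CPM in control replicates 1 and 2 and to 0 in control replicate 3 and in every valproic acid library. Sex and treatment thus cannot be told apart in this comparison. With Y-linked expression as a covariate 260 genes were called and with Xist 17. The 1028 genes called with no covariate had a median size of 0.266 on the log2 scale, and 0.262 when read from either covariate fit. Xist follows the treatment across the control and valproic acid libraries, so the size in the Xist fit cannot part sex from treatment. With Xist 2 of the 76 gene lists held any call, the imprinted genes with 1 and the MHC and complement genes with 2, and so every other list named below had 0 calls in that fit. Within the poly(I:C) group, the library with Xist differed from the other two in the same direction as the valproic acid change for 53.2% of the called genes and for 50.8% of all tested genes.

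Of the tested autosomal genes 1028 were called, 6.32% of all, with 581 higher (3.57%) and 447 lower (2.75%) under valproic acid. The changes were small. The median size of a called gene was 1.203-fold, 750 called genes (73.0%) differed by less than 1.3-fold, and 68 by at least 2-fold, 38 upward and 30 downward. In 1014 of the called genes (98.6%) the valproic acid and control libraries did not overlap, against 25.5% of all tested genes. Calls were made on these same libraries, so the higher share follows largely from the selection and is no separate support. Genes called higher had a median level of 94.7 CPM and those called lower 41.7 CPM, beside 20.9 CPM for all tested genes. Without control replicate 1 the count was 445, without control replicate 2 it was 668, without control replicate 3 it was 570, without valproic acid replicate 2 it was 656, and it was 695 to 747 without either of the others. Of 222 called genes named by the rule given under processing, 99 kept their call in all 6 such fits. A gene given as rising or falling below kept its call in all 6 unless the library that ended it is named.

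**Figure D1:**
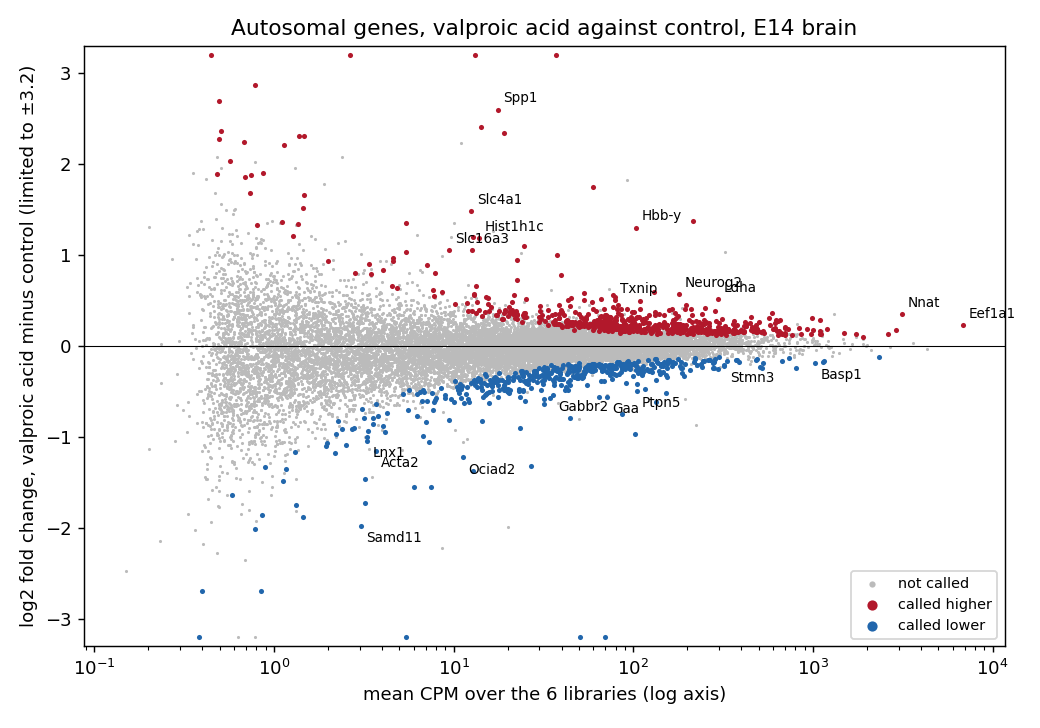
Each point is 1 of 16278 tested autosomal genes, with its mean CPM over the 6 libraries on a log axis and its log2 fold change (valproic acid minus control) on the vertical axis, held within ±3.2. Called genes crowd at small sizes among well-read genes: their median size is 1.203-fold, and Spp1 stands far above most genes of its level. A few genes, such as the pseudogene Gm10020 (log2 4.47), lie higher still.

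Spp1, which codes for osteopontin, a secreted phosphoprotein made by some macrophages and microglia, had one of the largest changes. It was at 5.67, 6.49 and 2.94 CPM in the control libraries and 27.2, 34.0 and 29.5 CPM in the valproic acid libraries, with 3.58, 4.01 and 4.65 CPM under poly(I:C). Every valproic acid library lay far above the highest of the other 6. The change was 6.07-fold (log2 2.60 ± 0.19 SE, edgeR adjusted p = 7.7e-06, up to 3.5e-05 with a library left out). Txnip, whose protein binds thioredoxin and restrains glucose uptake, rose from 63.5, 64.8 and 66.6 CPM to 96.2, 89.4 and 91.8 CPM, 1.42-fold (adjusted p = 5.4e-05), and was at 62.9, 61.7 and 59.8 CPM under poly(I:C). Nnat, an imprinted gene for neuronatin, a small membrane protein of the endoplasmic reticulum, rose from 2681, 2842 and 2722 CPM to 3461, 3648 and 3382 CPM. Although the rise was only 1.27-fold, the 2 groups were parted by more than their own width (adjusted p = 5.1e-05). Ptpn5 had the smallest adjusted p among the genes that fell (8.0e-05). It codes for the striatal-enriched phosphatase STEP, and stood at 128, 119.8 and 118 CPM in controls and 84.0, 85.0 and 91.1 CPM under valproic acid, 1.41-fold lower. With Xist as a covariate Spp1 lost its call (edgeR adjusted p = 0.055). Txnip, Nnat and Ptpn5 kept theirs in that fit (edgeR adjusted p = 0.035, 0.0487 and 0.0469).

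**Figure D2:**
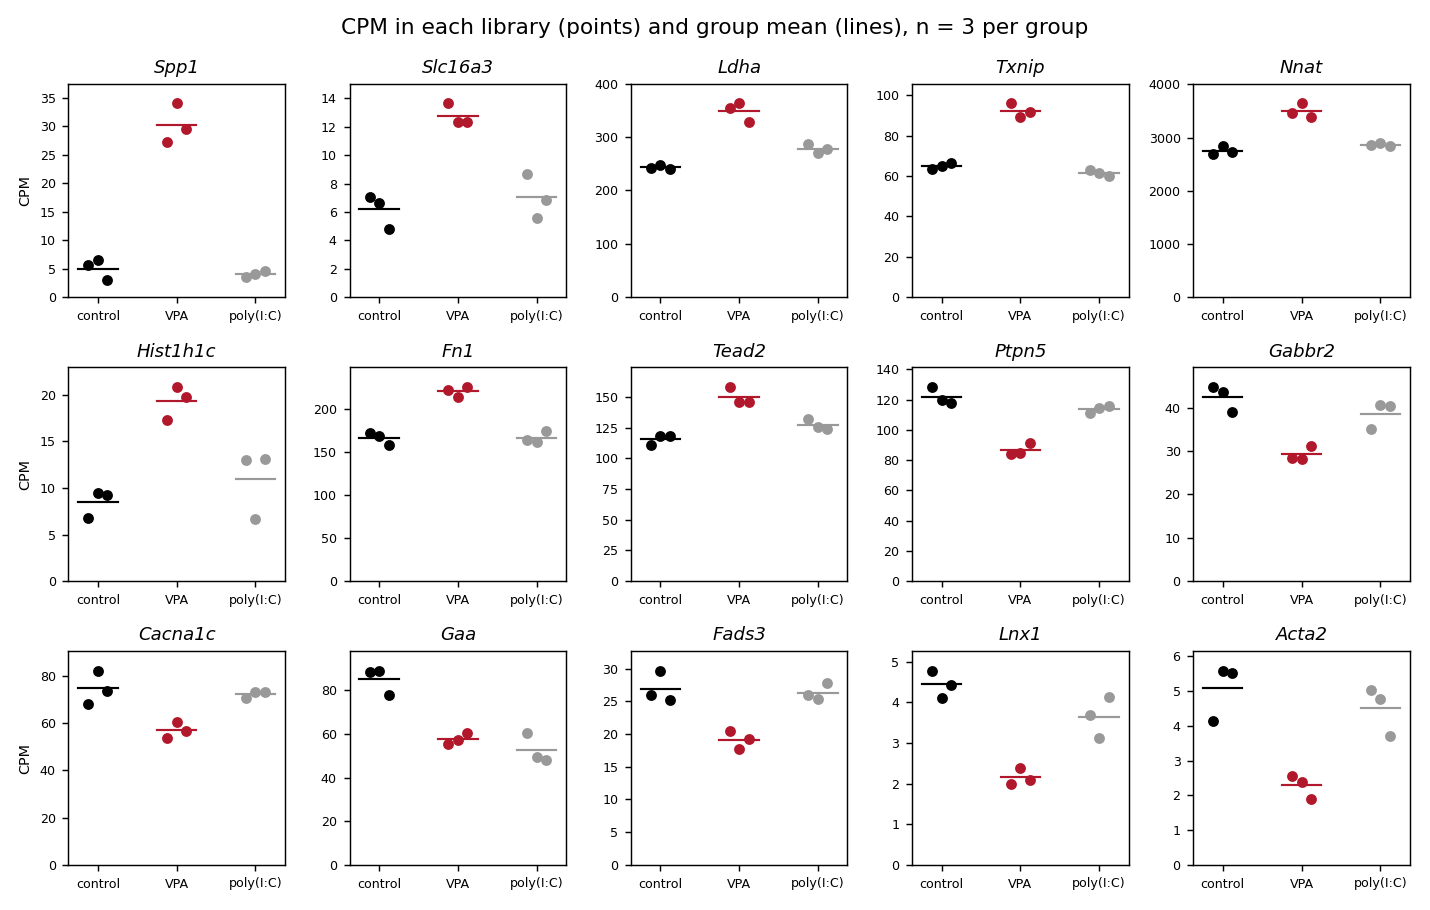
CPM of 15 genes in each library (points) with the mean of the group (lines), 3 libraries per group, each vertical axis starting at 0. In every panel the valproic acid points lie apart from the control points, upward for the first 8 genes and downward for the other 7, while for Gaa the poly(I:C) points lie as low as those of valproic acid.

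Ldha, Eno1 and Tpi1, named for their small adjusted p, and Slc16a3 handle glucose or lactate and rose, and no list of glycolysis genes was counted. Glycolysis splits glucose to pyruvate, lactate dehydrogenase turns pyruvate to lactate, and monocarboxylate transporters carry lactate out of the cell. Ldha, the A subunit of lactate dehydrogenase, was at 243, 248 and 240.0 CPM in controls and 354, 364 and 329 CPM under valproic acid, 1.43-fold higher (adjusted p = 1.7e-05). Slc16a3, the lactate exporter MCT4, was at 7.08, 6.66 and 4.83 CPM and 13.7, 12.4 and 12.3 CPM, 2.07-fold higher (adjusted p = 0.0028), the largest rise among the transporters. Eno1 rose 1.31-fold and Tpi1 1.34-fold, both enzymes of glycolysis. The stretches before the annotated starts of Ldha and Slc16a3 are shown because both genes rose and both hold ACGTG, the core letters of the element bound by hypoxia-inducible factors, in their 250 bases upstream. They are RefSeq promoter sequences of build GRCm38.p6, chr7:46845654-46845803 and chr11:120949007-120949066, both on the plus strand and ending at the base before the start, with capitals for ACGTG on either strand.
Ldha: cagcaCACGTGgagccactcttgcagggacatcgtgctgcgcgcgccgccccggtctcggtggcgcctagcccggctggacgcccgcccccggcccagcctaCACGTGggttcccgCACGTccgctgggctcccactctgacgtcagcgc
Slc16a3: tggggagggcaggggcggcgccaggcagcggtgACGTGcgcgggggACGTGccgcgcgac
ACGTG was searched on both strands, where its reverse is CACGT and both lie within the E-box CACGTG. It was found at 5 positions for the first of the start sites of Ldha, 2 as ACGTG and 3 as CACGT. Each CACGTG holds both, so these positions overlap and are not 5 separate sites. At the other start site of Ldha there was none, and Slc16a3 had 2, both as ACGTG. None was found in the same window of Eno1, Tpi1 or Txnip, and 16.6% of 32851 such windows of all genes hold it, so a match is a description of these letters only.

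Of 17 tested genes for glucose, lactate and amino acid transporters 4 rose and 2 fell (35.3% called against 6.32% of all autosomal genes), with a median log2 difference of 0.04 beside -0.00 over all genes. Leaving out a library gave 2 (without control replicate 1 or 2) to 6 calls. Slc1a5, a glutamine transporter, went from 10.98, 12.98 and 14.1 CPM to 19.97, 17.5 and 17.6 CPM, 1.44-fold higher, with the call lost without control replicate 1 (adjusted p = 0.062). Slc1a4, which carries serine and other neutral amino acids, was 1.19-fold lower at an adjusted p of 0.018, lost without control replicate 1 or 2 or without valproic acid replicate 2. Slc2a3, a glucose transporter of neurons, was the other gene called lower, 1.21-fold at an adjusted p of 0.028, and kept its call only without control replicate 1. Among 48 nuclear-encoded respiratory chain genes 3 rose and 1 fell (8.33% called), and 2 to 3 were called when a library was left out. Uqcrc1, a core subunit of complex III, rose 1.15-fold. Atp5e, the epsilon subunit of ATP synthase, was the one called lower. It was at 103, 111 and 112 CPM in controls and 73.3, 63.9 and 56.8 CPM under valproic acid, 1.68-fold lower (adjusted p = 0.014, lost without valproic acid replicate 3 at 0.052), and at 108, 61.2 and 110.3 CPM under poly(I:C), so poly(I:C) replicate 2 lay within the range of valproic acid. Of 22 citrate cycle genes 1 was called higher and 1 lower (9.09% called), and 1 to 2 were called when a library was left out. Pcx, pyruvate carboxylase, was the one called lower, 1.198-fold and lost without control replicate 1 or 2 or without valproic acid replicate 1, 2 or 3. None of 48 mitochondrial ribosomal protein genes was called by edgeR or DESeq2, with 7 at an unadjusted p under 0.05 and a median log2 difference of 0.06. Ckb, the brain creatine kinase, rose 1.22-fold, from 577, 558 and 553 CPM to 715, 667 and 670.1 CPM (adjusted p = 0.00085). Mt3, the metallothionein of brain, rose 1.496-fold. It was at 41.9, 46.7 and 38.7 CPM in controls and 71.1, 49.1 and 70.3 CPM under valproic acid, so valproic acid replicate 2 lay just above the highest control, and at 78.9, 78.4 and 77.7 CPM under poly(I:C). With the Y-linked covariate 1 transporter and 1 respiratory chain gene were called.

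Lipid genes were called in both directions. Fatty acid synthesis joins acetyl units made from citrate, and desaturases and elongases finish the chains. Acly, which makes the acetyl units, rose 1.14-fold and Fasn, the synthase, 1.24-fold, from 505, 523 and 492 CPM to 562, 671 and 646 CPM. Fads3, a fatty acid desaturase family member, fell from 25.9, 29.7 and 25.1 CPM to 20.4, 17.7 and 19.3 CPM, 1.41-fold (adjusted p = 0.0048). Me1, a malic enzyme that supplies reducing power, was called lower, 1.48-fold at an adjusted p of 0.037, and kept its call only without valproic acid replicate 2. In all 4 of 24 genes of this list rose and 3 fell (29.2% called, beside 6.32% of all autosomal genes). When a library was left out 4 to 7 were called. Among 20 sterol regulators and transporters 4 rose and 1, Apoe, fell (25% called). With a library left out the count ranged over 1 (without control replicate 1) to 4. Apoe, the main lipid carrier of brain, was 1.16-fold lower and lost its call without control replicate 1 or 2 or without valproic acid replicate 2. Under the Y-linked covariate the synthesis list and the sterol list had 1 call each.

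The enzymes that burn fatty acids gave 0 rises and 4 falls among 29 (13.8% called, beside 6.32% of all autosomal genes). Their median log2 difference was -0.06. With a library left out 2 (without control replicate 1 or without valproic acid replicate 1 or 3) to 4 were called. Acot7, the acyl-CoA hydrolase of neurons, fell from 123, 125 and 114 CPM to 101, 98.7 and 106 CPM, 1.18-fold. Acadl, a dehydrogenase of long chains, and Acat1, a thiolase, were also called lower, and their calls were lost without control replicate 1 or 3 or without valproic acid replicate 1, 2 or 3 for Acadl and without control replicate 1 or without valproic acid replicate 1 or 3 for Acat1. No gene of branched-chain amino acid and propionate breakdown was called by edgeR or DESeq2 among 18 tested, and 0 had an unadjusted p under 0.05. Pccb, a subunit of propionyl-CoA carboxylase, was at 55.3, 63.2 and 66.0 CPM in controls and 62.8, 59.6 and 60.5 CPM under valproic acid. Sphingolipid synthesis had 0 rises and 2 falls among 22 genes (9.09% called beside 6.32% of all autosomal genes, median -0.10), Cers4 and St3gal5. The call of Cers4 was lost without control replicate 2 or without valproic acid replicate 2. That of St3gal5 was lost without control replicate 1 or 3 or without valproic acid replicate 1 or 2. The list's count ranged over 0 (without valproic acid replicate 2) to 2. Gcsh, the H protein of the glycine cleavage system, fell 1.39-fold, from 27.8, 30.2 and 27.5 CPM to 20.8, 20.7 and 19.6 CPM. With Y-linked expression in the fit 1 of the oxidation genes was called and 0 of the sphingolipid genes.

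Transcripts of the deacetylases themselves gave no call with edgeR. Among 9 tested autosomal Hdac genes edgeR called none, with log2 differences from -0.22 to 0.15 and 3 at an unadjusted p under 0.05. Hdac5 came nearest, at an edgeR adjusted p of 0.063, and was the 1 gene of the 9 that DESeq2 called (adjusted p = 0.031). A list of 36 tested genes joined these 9 to sirtuins and to subunits of the corepressor complexes in which deacetylases work. In it 3 were called, all higher (8.33%, beside 6.32% of all autosomal genes). Among them were Rcor2 of the CoREST complex (1.17-fold) and Mbd3 of the NuRD complex (1.13-fold, lost without control replicate 1 or without valproic acid replicate 1 or 3). Without a library the count was 1 (without control replicate 1) to 4. The opposing enzymes, acetyltransferases with their bromodomain readers, gave 3 rises and 0 falls among 25 (12% called, median 0.11). Ep300 rose 1.204-fold, from 139, 137 and 129 CPM to 149, 174 and 165 CPM (adjusted p = 0.0088), while Crebbp was also called higher but not without control replicate 1 or 3 or without valproic acid replicate 2 or 3, and Kat6b not without control replicate 1 or 3 or without valproic acid replicate 2, and the count ranged over 1 (without control replicate 1 or 3 or without valproic acid replicate 2) to 3. The Y-linked covariate left 0 calls in the corepressor list and 1 among the acetyltransferases.

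Chromatin remodellers, which slide or evict nucleosomes, gave more rises than falls: 11 of 42 rose and 1 fell (28.6% called, median 0.11), with 7 (without control replicate 1 or 3) to 13 calls when a library was left out. Chd7 was at 129, 129 and 134 CPM in controls and 151, 181 and 166 CPM under valproic acid, 1.27-fold higher (adjusted p = 0.0029). Its protein is a remodeller whose loss causes CHARGE syndrome. Chd4, the motor of the NuRD complex, rose from 558, 579 and 558 CPM to 634, 716 and 666 CPM, 1.19-fold. Actl6a, the subunit that BAF complexes of progenitors carry, rose 1.22-fold and Arid1a, another BAF subunit, 1.18-fold. Smarca2, one of the alternative motors of BAF, was the member called lower, also with any 1 library left out. Histone methylation writers and erasers gave 8 rises and 0 falls among 38 (21.1% called, median 0.07), but only 2 (without control replicate 1 or 3) to 7 with a library left out. Kmt2d, which methylates lysine of histone H3 at enhancers, rose 1.22-fold and Prdm16, a factor of radial glia, 1.19-fold. Polycomb genes had 2 of 32 called (6.25%, beside 6.32% of all autosomal genes), both higher, Phc2 (1.16-fold) and Cbx2 (1.19-fold). Both were called in all 6 fits with a library left out. Uhrf1, which guides DNA methyltransferase to newly made DNA, rose 1.23-fold, from 98.5, 103 and 104 CPM to 121, 129 and 126 CPM (adjusted p = 0.003). Under the Y-linked covariate the counts were 4 for remodellers, 0 for histone methylation, and 1 for Polycomb genes.

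Hist1h1c, which codes for the linker histone H1.2, had the largest called rise among the chromatin lists. Control libraries held 6.73, 9.48 and 9.21 CPM and valproic acid libraries 17.3, 20.9 and 19.8 CPM, 2.27-fold (log2 1.18 ± 0.20 SE, adjusted p = 0.0039). Under poly(I:C) it was at 13.02, 6.70 and 13.1 CPM, with replicate 2 just below the lowest control and the others above the highest. H2afv, a replacement histone, rose 1.17-fold. Of 38 imprinted genes, which are expressed from the allele of 1 parent, 3 (without control replicate 1) to 9 were called with a library left out. With all libraries 4 rose and 1 fell (13.2% called, beside 6.32% of all autosomal genes). Besides Nnat these were Dlk1, an atypical Notch ligand, 1.295-fold from 84.1, 91.1 and 90.0 CPM to 113, 111 and 119 CPM, Blcap, the gene in whose intron Nnat lies, 1.14-fold, and Grb10, an adaptor that restrains insulin signalling, 1.14-fold and lost without control replicate 1 (adjusted p = 0.07). Ncapd2, a condensin subunit, fell from 165, 179 and 176 CPM to 139, 140.3 and 130.4 CPM, 1.27-fold, and stood at 143, 133 and 133 CPM under poly(I:C), a comparison that shares the control libraries. Imprinted genes had 3 calls with the Y-linked covariate and histone variants 0.

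Many transcripts for making ribosomes and protein rose by small steps. Ribosome biogenesis and nucleolar genes gave 11 rises and 0 falls among 38 (28.9% called), 36 of the 38 had a fold change above 1, and their median log2 difference was 0.12. With a library left out the count was 3 (without control replicate 1 or without valproic acid replicate 2) to 8, and the median stayed between 0.12 and 0.15 in the alternatives tried. Mybbp1a, a nucleolar protein, was at 159, 164 and 156 CPM in controls and 192, 190.5 and 187 CPM under valproic acid, 1.19-fold higher (adjusted p = 0.0012). Ddx21, a nucleolar RNA helicase, rose 1.17-fold and Ubtf, a factor that RNA polymerase I needs, 1.13-fold. Among 40 translation factors 8 rose and 0 fell (20% called, median 0.11), and 1 (without control replicate 1) to 6 with a library left out. Eef1a1, the factor that brings charged transfer RNA to the ribosome, was the highest-read called gene, at 6330.4, 6322 and 6192 CPM and 7107, 7696 and 7299.8 CPM, 1.17-fold higher (adjusted p = 0.00048). Of 23 transfer RNA synthetases 4 rose and 0 fell (17.4% called, beside 6.32% of all autosomal genes). With a library left out 1 (without control replicate 3) to 5 were called. Wars, for tryptophan, rose 1.246-fold from 94.0, 106 and 88.9 CPM to 117, 122 and 122 CPM, and was at 118, 120.1 and 113 CPM under poly(I:C). With Y-linked expression as a covariate 3 ribosome biogenesis genes, 2 translation factors and 2 transfer RNA synthetases were called.

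Splicing factors of the SR and hnRNP families gave 8 rises and 0 falls among 37 (21.6% called, beside 6.32% of all autosomal genes). The median was 0.05, and 3 (without control replicate 1 or without valproic acid replicate 3) to 7 were called when a library was left out. Hnrnpm rose from 434, 434 and 427 CPM to 496, 499 and 492 CPM, 1.15-fold (adjusted p = 0.0031). Ptbp1, a splicing repressor that progenitors express and neurons shut off, rose 1.19-fold, from 125, 124 and 131 CPM to 152, 148 and 151 CPM. Heat shock chaperones had 4 rises among 24 (16.7% called), but none kept its call in every fit. Their count ranged over 0 (without control replicate 1 or 3) to 3. The proteasome list had 1 call among 40 (2.5%). That gene, Psmc3ip (1.47-fold), is no proteasome subunit but a recombination factor that shares the symbol's start. Zinc finger genes named Zfp gave 8 rises and 3 falls among 350, 3.14% called, below the share of all autosomal genes, with 2 (without control replicate 1) to 11 calls when a library was left out. No gene of purine and pyrimidine synthesis was called by edgeR or DESeq2 among 22, 4 had an unadjusted p under 0.05, and the median was 0.08. In the fit with the Y-linked covariate the splicing list had 1 call, the heat shock list 0 and the zinc finger list 1.

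**Figure D3:**
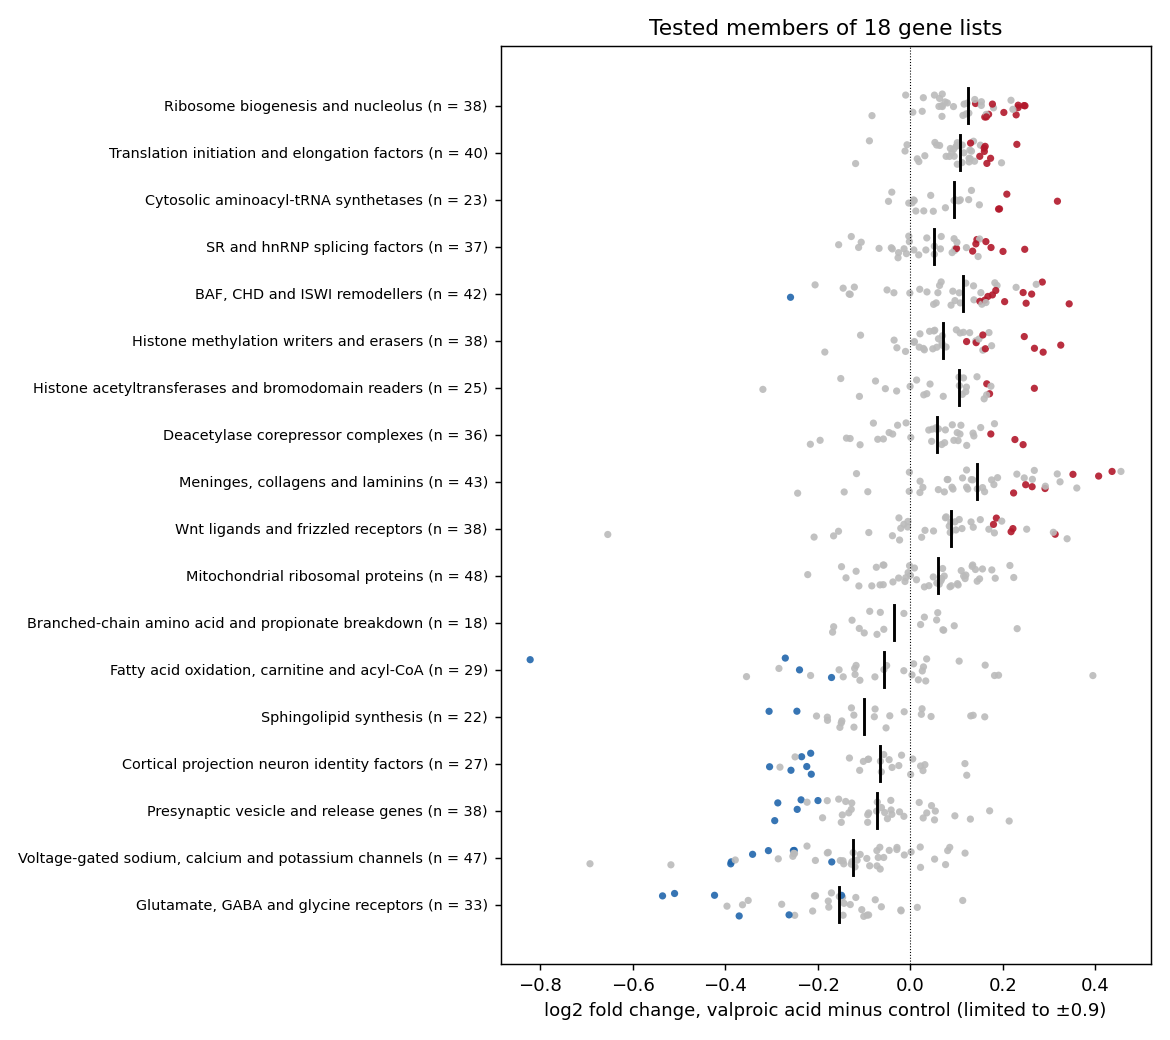
Each point is a tested member of 1 of 18 gene lists, placed by its log2 fold change (valproic acid minus control), red where called higher and blue where called lower, with a black line at the median of the list. The medians run from 0.14 for meninges and matrix and 0.12 for ribosome biogenesis to -0.12 for ion channels and -0.15 for transmitter receptors.

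Genes of synaptic signalling and excitability gave falls and no rises. Receptors for glutamate, GABA and glycine had 0 rises and 6 falls among 33 (18.2% called, median -0.15), and 2 of the 33 had a fold change above 1. The count was 4 (without control replicate 1 or 2 or without valproic acid replicate 1) to 6 with a library left out. Gabbr2, a subunit of the metabotropic GABA-B receptor, was at 44.8, 43.6 and 39.0 CPM in controls and 28.4, 28.2 and 31.3 CPM under valproic acid, 1.45-fold lower (adjusted p = 0.0012). Grm5, a metabotropic glutamate receptor, fell from 53.3, 52.1 and 46.7 CPM to 35.0, 36.6 and 41.9 CPM, 1.34-fold. Glrb, the anchoring subunit of the glycine receptor, fell 1.29-fold. Voltage-gated sodium, calcium and potassium channels gave 0 rises and 7 falls among 47 (14.9% called, median -0.12), with 4 (without control replicate 1 or without valproic acid replicate 1) to 7 calls with a library left out. Cacna1c, the pore of an L-type calcium channel, stood at 68.2, 82.3 and 73.8 CPM and 53.8, 60.7 and 56.9 CPM, 1.31-fold lower (adjusted p = 0.004). Its relative Cacna1d fell 1.31-fold, the R-type Cacna1e 1.19-fold and Kcnd2, an A-type potassium channel, 1.27-fold. Of the 47 channels 8 had a fold change above 1. The Y-linked covariate gave 2 calls among the receptors and 4 among the channels.

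Presynaptic genes gave 0 rises and 5 falls among 38 (13.2% called, beside 6.32% of all autosomal genes, median -0.07). None of Rims3, Cplx1 and Syt5 kept its call in every fit. The count ranged over 1 (without control replicate 1 or 2) to 6. Identity factors of cortical projection neurons had 0 rises and 6 falls among 27 (22.2% called, median -0.06), 3 (without control replicate 2 or 3) to 5 with a library left out. Lmo3 fell from 128, 123 and 119.7 CPM to 103, 99.8 and 97.4 CPM, 1.23-fold (adjusted p = 0.0044). Tle4, a corepressor of deep layer neurons, fell 1.16-fold and lost its call without control replicate 3, and Bhlhe22 fell 1.16-fold and lost it without control replicate 2. Reelin and Cajal-Retzius genes, markers of the earliest cortical neurons, had no call by edgeR or DESeq2 among 21, and 3 had an unadjusted p under 0.05. Slc12a2, the chloride importer NKCC1 that sets the early response to GABA, fell from 135, 146 and 141 CPM to 119, 126 and 116 CPM, 1.17-fold, and was at 103, 106 and 106 CPM under poly(I:C). Stmn3, a neuronal regulator of microtubules, fell from 346, 349 and 341 CPM to 296, 295 and 303 CPM, 1.16-fold, and Basp1, a growth cone protein, 1.14-fold. Of the 16 tubulins, 31.25% of them called, Tuba1c and Tuba4a rose and Tubg2 and Tubb4a fell. Tubb2a was called lower at an adjusted p of 0.049, lost without control replicate 1, 2 or 3 and without valproic acid replicate 1, and reads of such near-identical genes may be shared. The clustered protocadherins, cell surface labels of single neurons, had 1 call among 52 (1.92%). Their median was -0.14, which moved between -0.26 and -0.04 in the alternatives tried. Calls with the Y-linked covariate numbered 0 for presynaptic genes, 1 for cortical identity factors and 2 for tubulins.

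Several genes of progenitors and of the signals they read rose. Tead2, the partner of YAP in the Hippo pathway, was at 111, 118 and 118 CPM in controls and 158, 146 and 146 CPM under valproic acid, 1.297-fold higher (adjusted p = 0.00048). Fgfr3, a receptor for fibroblast growth factors, rose from 83.4, 86.2 and 87.0 CPM to 112, 110.3 and 109.9 CPM, 1.29-fold, while Etv5, a target of the same signal, was 1.21-fold lower and lost its call without control replicate 1 or 2 or without valproic acid replicate 1 or 2. Igfbp2, which binds insulin-like growth factors, rose 1.22-fold. Over the Hippo, IGF and mTOR list 6 of 44 rose and 0 fell (13.6% called, beside 6.32% of all autosomal genes). With a library left out 2 (without control replicate 3 or without valproic acid replicate 3) to 5 were called. Of 38 Wnt ligands, receptors and secreted regulators 5 rose and 0 fell (13.2% called), with 2 (without control replicate 3) to 3 when a library was left out. Among those that rose were Fzd8, a frizzled receptor, 1.24-fold, and Sfrp1, a secreted Wnt antagonist, 1.17-fold. Cyclins and their partners gave 5 rises and 0 falls among 32 (15.6% called), with 2 (without control replicate 1) to 5 when a library was left out. Ccnd2, a cyclin of cortical progenitors, rose from 646, 637 and 683 CPM to 741, 770.4 and 739 CPM, 1.14-fold. Aspm and Nde1, centrosome proteins whose loss causes microcephaly, rose 1.24-fold and 1.22-fold. Their list of 27 centrosome and microcephaly genes had 3 rises and 1 fall (14.8% called) with a median of 0.04. When a library was left out 2 (without control replicate 2 or 3 or without valproic acid replicate 2) to 4 were called. The fall was Nin, a centrosome anchor, 1.15-fold and lost without control replicate 2 or 3 or without valproic acid replicate 2. Replication and repair genes had 1 call among 46 (2.17%), and spindle genes 2 among 36 (5.56%), shares below the 6.32% of all autosomal genes. None of these genes was called in every fit. Given the Y-linked covariate, counts were 1 for the Hippo, IGF and mTOR list, 2 for Wnt genes, 0 for cyclins and 0 for centrosome genes.

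Factors that set the timing of progenitors had 4 rises and 1 fall among 17 (29.4% called, median 0.11), and 3 (without control replicate 2 or without valproic acid replicate 1) to 4 calls when a library was left out. Sall1, a transcriptional repressor of progenitors, rose from 78.7, 74.7 and 71.2 CPM to 95.8, 98.7 and 91.1 CPM, 1.27-fold (adjusted p = 0.0013). Igf2bp1, an RNA-binding protein that falls as the brain matures, rose 1.21-fold. Nfix, which turns progenitors toward later fates, fell from 529, 619 and 552 CPM to 480.5, 469.6 and 488 CPM, 1.18-fold. Among 34 ganglionic eminence and GABAergic genes 2 rose and 0 fell (5.88% called, beside 6.32% of all autosomal genes). With a library left out 1 (without control replicate 1 or 2 or without valproic acid replicate 3) to 3 were called. Nr2e1, a nuclear receptor of neural stem cells, was the one that kept its call (1.26-fold). Of 20 genes of the rhombic lip and cerebellum 2 rose (10% called), Pax6 and Eomes, which forebrain progenitors also express. Eomes stood at 145, 149.6 and 154 CPM and 195, 202 and 181 CPM, 1.29-fold higher (adjusted p = 0.00045). No Hox or mid-hindbrain factor was called by edgeR or DESeq2 among the 10 tested of 38, where 2 had an unadjusted p under 0.05. The same held for monoamine, cholinergic and motor neuron genes, with 0 of 14 called and 3 at an unadjusted p under 0.05. Of 33 hypothalamic and thalamic factors Otp alone was called (3.03%), 1.251-fold higher and lost without control replicate 1 or 2 or without valproic acid replicate 1. Neurog1, a proneural gene listed with the sensory ganglia but also active in forebrain, rose from 6.26, 4.12 and 6.97 CPM to 10.2, 10.96 and 9.16 CPM, 1.74-fold. For the timing factors 1 call was made with the Y-linked covariate, and for the GABAergic genes 1.

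Among genes of cells other than neurons and their progenitors, several matrix genes rose. Fn1, fibronectin, was at 172, 168 and 158 CPM in controls and 222, 214 and 225 CPM under valproic acid, 1.33-fold higher (adjusted p = 0.00016), and 164, 161 and 174 CPM under poly(I:C). Fbn2, a fibrillin of embryonic microfibrils, rose 1.28-fold. Of 43 genes of meninges, collagens and laminins 7 rose and 0 fell (16.3% called), 37 of the 43 had a fold change above 1 and the median was 0.14. The count was 2 (without control replicate 3) to 13 with a library left out. Summed meningeal markers lay at 626 to 668 CPM in controls and at 780.0, 613 and 798 CPM under valproic acid, so valproic acid replicate 2 lay below the controls. Of the 5 meningeal markers edgeR called 0 and DESeq2 1, and 3 had an unadjusted p under 0.05. Their part in the matrix result was not tested. Acta2, the actin of smooth muscle, fell from 4.13, 5.59 and 5.52 CPM to 2.57, 2.39 and 1.90 CPM, 2.22-fold (adjusted p = 0.0048). Vegfa, the growth factor of vessels, rose from 71.1, 69.3 and 69.7 CPM to 106, 82.9 and 89.4 CPM, 1.32-fold. Its list of 40 barrier and vessel genes had 2 rises and 1 fall (7.5% called, beside 6.32% of all autosomal genes). With a library left out 1 (without control replicate 1 or 2 or without valproic acid replicate 1) to 4 were called. Matrix and vessel lists had 2 calls each with the Y-linked covariate.

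Genes of macrophage states were called in both directions. Beside the rise of Spp1, Gpnmb, a glycoprotein of phagocytes, was higher at 1.11, 1.46 and 1.57 CPM against 0.354, 0.226 and 0.498 CPM, with its call lost without control replicate 1 or 2. Cd163, the haemoglobin scavenger receptor of macrophages at the brain's borders, was lower at 1.46, 0.699 and 1.57 CPM against 2.77, 2.31 and 2.84 CPM, lost without control replicate 1, 2 or 3 or without valproic acid replicate 1 or 2. In all 3 of 26 genes of this list rose and 2 fell (19.2% called, beside 6.32% of all autosomal genes). With a library left out 1 (without control replicate 1 or 2) to 4 were called. Summed markers of microglia, none of which is Spp1, lay at 73.4 to 80.4 CPM in controls and 56.5 to 69.2 CPM under valproic acid. Of these 5 markers 2 were called lower and 0 higher, and the part of microglia in the values of this list was not tested. Genes of the red cell membrane and of heme had 4 rises and 0 falls among 30 (13.3% called), with 2 to 5 when a library was left out. Slc4a1, the anion exchanger of red cells, rose from 6.97, 5.87 and 7.02 CPM to 19.3, 18.7 and 17.7 CPM, 2.80-fold (adjusted p = 0.00019). Hbb-y, an embryonic globin of primitive red cells, was at 74.6, 48.9 and 57.2 CPM and 187, 159 and 98.5 CPM. Summed red cell markers were at 1724 to 2029 CPM in controls and 2125 to 2388 CPM under valproic acid. Of these 6 markers edgeR and DESeq2 called 0, DESeq2 gave 1 of them no adjusted p, and 2 had an unadjusted p under 0.05. The macrophage and the red cell lists had 1 call each with that covariate for Y-linked expression.

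The genes with the largest falls had little in common by list. Samd11 was at 4.90, 4.80 and 4.83 CPM in controls and 0.759, 0.466 and 2.55 CPM under valproic acid, with valproic acid replicate 3 apart from the other two. Lnx1, a ubiquitin ligase that binds Numb, fell from 4.78, 4.12 and 4.43 CPM to 1.99, 2.39 and 2.09 CPM, 2.05-fold (adjusted p = 0.0053). Ociad2 fell from 16.4, 17.0 and 13.9 CPM to 5.43, 4.72 and 10.3 CPM, and Cdhr3, a cadherin-related gene, and Ky also fell, at levels below 3 CPM. Ephx2, Ccdc36, Matn2, Plac9a and Tmem254a were named among the 12 largest falls but lost their calls in 3 or more of the fits, and the last pair have near-identical copies. Gaa, the enzyme that breaks down glycogen in lysosomes, fell from 88.6, 89.0 and 77.8 CPM to 55.5, 57.2 and 60.5 CPM, 1.47-fold (adjusted p = 0.0012). Under poly(I:C) it was at 60.3, 49.4 and 48.2 CPM, as low, and that comparison shares the controls. Gfra4, a receptor of the GDNF family, fell 1.49-fold. Tef, a clock-controlled transcription factor, rose from 51.8, 50.6 and 52.4 CPM to 68.6, 68.9 and 67.7 CPM, 1.33-fold (adjusted p = 0.00048), and Jun, an immediate early gene, 1.23-fold. With the Y-linked covariate Samd11, Ociad2, Cdhr3, Ky and Jun lost their calls, while Lnx1, Gaa, Gfra4 and Tef kept theirs. With Xist none of them kept its call. Among the 12 largest rises Myl12b rested on valproic acid replicate 1, at 5.31, 0.816 and 1.24 CPM against 0.354, 0.621 and 0.498 CPM, and lost its call without control replicate 1, 2 or 3 or without valproic acid replicate 1 (adjusted p up to 0.23).

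The share of genes called depended on their level and on their length in the genome. Genes were split into 5 equal classes by level and again by span. Of the genes in the lowest class by level 0.68% were called higher and 0.55% lower, and of those in the highest class 10.3% higher and 4.02% lower. The gene lists above were not matched for level, so lists of well-read genes are set against a share over all levels. By span from first to last annotated base, taken from GENCODE M21, genes called lower had a median of 45.0 kb, those called higher 17.9 kb and all tested genes 20.5 kb. The share called lower was 1.198% in the shortest class of genes and 5.47% in the longest, while the share called higher was 3.96% and 3.29%. Within the upper 2 classes by level the share called higher was 14.7% among the shortest class and 5.98% among the longest, and the share called lower 2.37% and 7.70%. Channels and receptors named above are among the long genes, so the 2 descriptions share members. By chromosome the share called ran from 3.68% on chromosome 16 to 8.31% on chromosome 15. Protein-coding genes made up 959 of the calls. Of 469 antisense genes 8 were called (1.71%), of 435 long intergenic RNAs 15 (3.45%) and of 669 processed pseudogenes 29 (4.33%). These shares lie below the 6.32% of all autosomal genes. The median log2 differences were -0.10, -0.08 and 0.07.

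**Figure D4:**
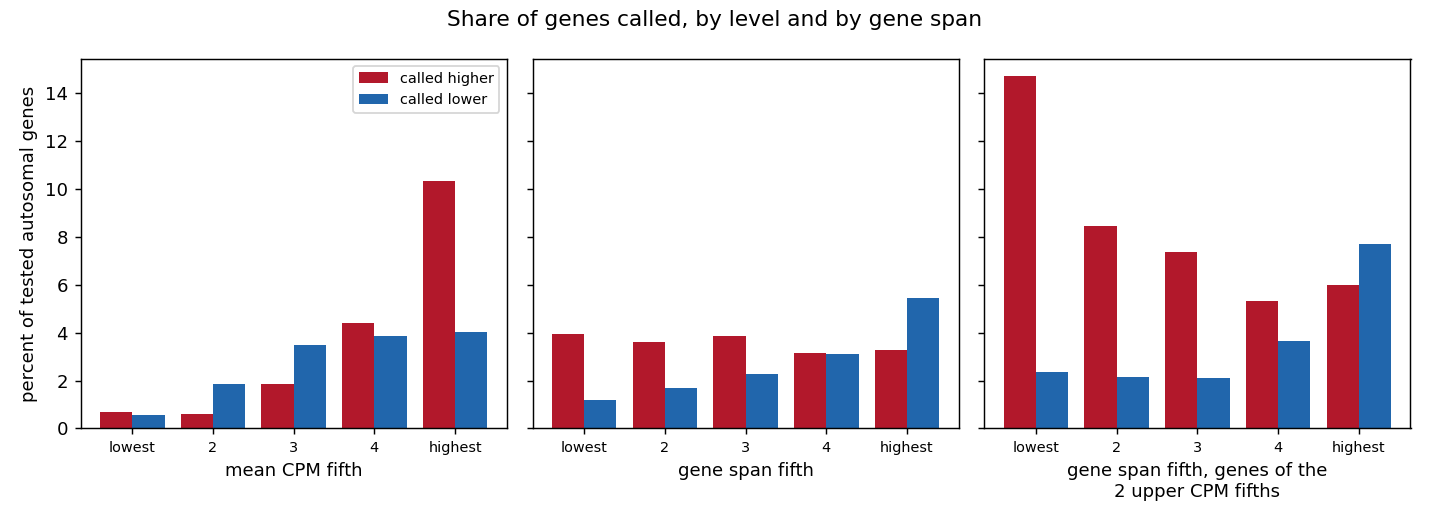
Bars give the percent of tested autosomal genes called higher (red) and lower (blue) in each of 5 equal classes by mean CPM (left), by gene span (middle) and by gene span among genes of the upper 2 classes by CPM (right), all from 0. The share called lower climbs with span, from 1.198% to 5.47% over all genes, and in the right panel the share called higher falls from 14.7% to 5.98%.

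Some genes stepped between near-separate levels from library to library, and 44 autosomal genes were found by a rule chosen after the values were seen: highest library above 5 CPM and above 8 times the lowest library plus 0.1 CPM. Of these 11 were called and 17 were pseudogenes. The rule also takes a gene with a large difference between the groups, and Spp1, Samd11 and Myl12b, described above, are among the 44. Sox12, a SoxC transcription factor, was called lower (adjusted p = 0.0057) yet stood at 0.0590, 154 and 150.2 CPM in controls, so control replicate 1 lay with the valproic acid libraries at 0.234, 0.175 and 0.196 CPM. Under poly(I:C) it was at 313, 316 and 160.0 CPM. Gapdh, which was not called, was at 6.80 to 10.5 CPM in 7 libraries and at 76.2 and 114.8 CPM in control replicate 3 and poly(I:C) replicate 1. Hmgb1, a chromatin protein called lower, and its pseudogene Hmgb1-ps7, called higher, lay on opposite sides, and reads of such copies may be shared. The call of Hmgb1 was lost without control replicate 1 or without valproic acid replicate 2 or 3, and that of the pseudogene without control replicate 1 or 2 or without valproic acid replicate 3. Without these 44 genes 1017 genes were called. Why these genes step was not tested.

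**Figure D5:**
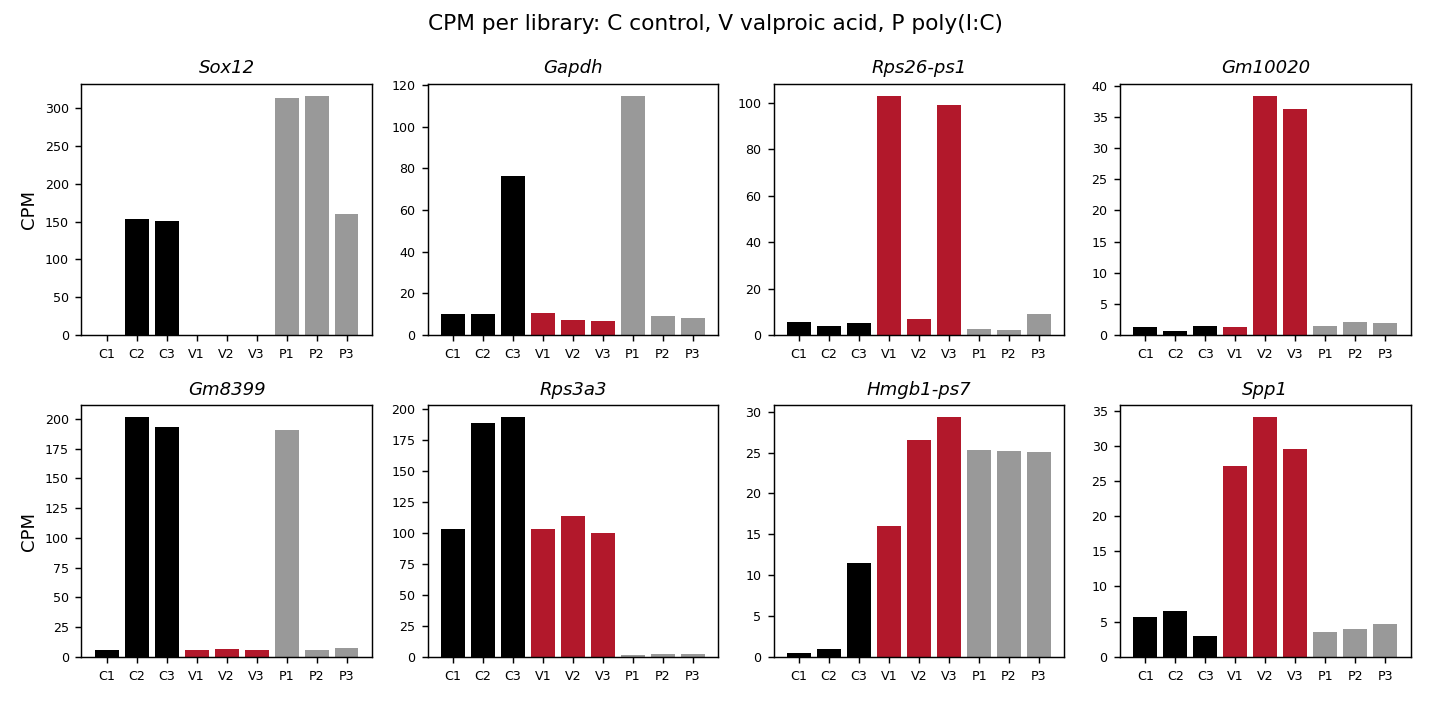
Bars give the CPM of 8 of the 44 genes found by the rule in each of the 9 libraries. Controls are in black, valproic acid in red and poly(I:C) in grey, each axis starting at 0. In Sox12 the valproic acid bars and that of control replicate 1 are near 0, while Spp1 separates all valproic acid libraries from the other 6.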

How the data were processed

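Whole-brain RNA of 9 libraries at embryonic day 14 was sequenced after ribosomal RNA removal, fragmentation and cDNA synthesis, per the labels' protocols. The authors deposited raw read counts by Ensembl gene. Per the submitters' processing notes reads were aligned with HISAT2 to GRCm39 (mm39). How reads were counted, with or without strand and on which gene models, is not given in the sources used here. Overlapping or antisense genes may therefore share reads, as may near-identical copies. GENCODE M21, on an earlier build, supplied symbols, chromosomes, biotypes and spans only.

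The filterByExpr function of edgeR 4.0.16 (R 4.3.3, min.count 10, min.total.count 15) left 17171 genes, of which 589 on X, 8 on Y, 25 mitochondrial and 269 without a chromosome in M21 were set aside after testing. A mean per group was fitted over all 9 libraries by the quasi-likelihood method with TMM scaling, two-sided. Depth was 15399974 to 19883131 counts. Libraries of a group were not copies of each other (chi-square per degree of freedom 3.94 or more).

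The 76 gene lists and the named genes were chosen with earlier results of these data known. Named were the 12 largest rises and falls (mean of at least 1 CPM, groups apart), the 10 smallest adjusted p, the 10 highest levels, and up to 4 called members of each list, or up to 2 as values. Smarca2, Tubb2a, Slc2a3, Me1, Hdac5, Gapdh and Hmgb1-ps7 were named after their values were seen. Alternatives were DESeq2 1.42.0 and its size factors, other filters, the 6 libraries alone, a replicate block, sex covariates, other library sizes, an adjusted p under 0.01 and leaving out each library. Lists were described by counts and medians with no test. Some genes that the rule selects are not reported here.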

Additional observations from a re-analysis of the deposited data

Results flagged for a closer look

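Xist, which lies on the X chromosome and so outside the autosomal comparison, had a mean of 1027.2 CPM in the valproic acid libraries. It stood out because no control library held more than 0.236 CPM. It was also high in poly(I:C) replicate 3, at 1048 CPM. Control replicate 3 held neither Xist above 0.0498 CPM nor Y-linked reads. Sex and treatment cannot be told apart in these 6 libraries.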

How the results depend on the processing

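The count of 1028 autosomal calls (581 higher, 447 lower) was 791 to 1180 under DESeq2 size factors, a minimum of 1 CPM, the 6 libraries alone, library sizes without mitochondrial, globin and ribosomal protein genes, autosomal genes alone and the DESeq2 Wald test. With no filter on low counts it was 1555, 746 of them lower, among 29469 genes tested. At an adjusted p under 0.01 it was 274 (165 higher, 109 lower). A covariate of Y-linked expression gave 260 (148 higher, 112 lower) and one of Xist 17 (12 higher, 5 lower). For the 1028 genes called with no covariate, the median standard error was 0.058 in that fit, 0.071 with the Y-linked covariate and 0.106 with Xist. Leaving out 1 library gave 445 to 747 calls, 243 to 462 higher and 202 to 304 lower, from fewer samples. The cause of the other shifts was not tested. Of 222 named calls 72 were kept with the Y-linked covariate and 6 with Xist, and none of the 222 changed direction in any alternative tried. With the replicate number as a block 860 genes were called (487 higher, 373 lower). Same-numbered libraries did not deviate together (correlations of 0.027, -0.051 and -0.0038). With 3 libraries per group, deviations from a group mean constrain each other. These values therefore cannot settle whether the numbers pair the samples. In alternatives chosen after seeing the data, 1017 genes were called without those that step between libraries, 960 without pseudogenes and ribosomal protein genes, and 959 among protein-coding genes.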

Other observations

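Further genes were called under valproic acid in lists not described above, each also with any 1 library left out. With the Y-linked covariate Gadd45g, Celsr1 and Cpeb4 lost their calls (edgeR adjusted p = 0.078, 0.051 and 0.0502). With Xist none of the genes named here kept its call. Gadd45g, a stress-induced gene, rose from 53.5, 62.6 and 60.6 CPM to 72.0, 72.5 and 78.2 CPM, 1.26-fold. Smad3, which carries TGF-beta signals, rose 1.27-fold. Plxnd1, a semaphorin receptor, rose 1.201-fold. Its list of 51 axon guidance genes had 5 rises and 0 falls (9.80% called, beside 6.32% of all autosomal genes). In that list 1 (without control replicate 3) to 5 were called with a library left out and 3 with the Y-linked covariate. Celsr1, an atypical cadherin of planar polarity, rose from 157, 180.5 and 165 CPM to 194, 257 and 235 CPM. Oaz2, an antizyme that restrains polyamine synthesis, rose 1.18-fold. Cpeb4, an RNA-binding protein, fell from 94.3, 94.9 and 93.2 CPM to 76.1, 82.6 and 78.8 CPM.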
